A study of Rattus norvegicus with 11 samples.

Results

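The cardiac muscle genes Myh6, Tnnt2, Tnni3, Actc1, Nppa, Pln, Myl7, Myl4, Ryr2 and Mybpc3 were followed in rat lung. Members were the probe sets whose annotated symbol was exactly 1 of these 10 names. They came to 14 of the 31042 probe sets tested and to 9 of the 14217 genes with a probe set of their own. Actc1 had none, because its 5 probe sets also carried the symbol Acta2. Myh6, Tnnt2 and Ryr2 had 2 probe sets each, Pln had 3, and the other 5 genes had 1.

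Whole lung RNA of Dahl salt-sensitive rats weighing 250 to 350 g was hybridised to 11 Affymetrix arrays. The normoxia group (4 arrays) breathed room air and the hypoxia group (4 arrays) breathed about 9.5% oxygen, both with vehicle. The third group (3 arrays) had hypoxia with SU5416, an inhibitor of vascular endothelial growth factor receptors that is combined with hypoxia to model severe pulmonary hypertension. Lungs were taken at 3.5 weeks after perfusion through the pulmonary artery. All groups shared the salt-sensitive strain, which limits them as a model of other rats. The labels do not give the lobe or the piece of lung, and do not say whether the arrays came from different animals, so p-values measure only the spread between these samples.

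In rats and mice, striated heart muscle continues from the left atrium along the pulmonary veins into the lung, so a lung sample can hold cardiac myocytes as well as vascular and airway smooth muscle. A cardiac myocyte contracts when calcium leaves the sarcoplasmic reticulum and binds the troponin complex on the thin filament, which lets myosin pull on actin. This sleeve muscle is of atrial kind, and it is known as a site where atrial fibrillation starts. In a bulk sample, fewer cells of a type and less RNA per cell cannot be told apart.

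All 10 alveolar epithelial genes measured and all 8 endothelial genes were above background on all 11 arrays. So were all 12 smooth muscle genes, and only 18.8% of all probe sets had a mean below background. This criterion therefore cannot by itself bear out the labelled tissue. Background was 5.72 on the log2 signal scale, the 95th percentile of the values of 27 bacterial control probe sets. Array medians ran from 7.80 to 8.01; precision is limited by having 3 or 4 arrays a group. The beta-actin gap, the 3′ minus the 5′ control signal in log2 and a sign of RNA quality, reached 2.24 for normoxia 1 and 1.33 for normoxia 2, while the remaining 9 arrays lay between 0.51 and 0.87.

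All 9 genes were above background on at least 8 of the 11 arrays. For each gene the range within normoxia exceeded every difference between group means. Pln varied less within hypoxia (range 0.74) and within hypoxia with SU5416 (0.67) than those 2 groups differed (1.04). Normoxia array 3 was the highest of the 11 for 8 of the 9 genes, and normoxia array 2 was the next for 6 of them. Normoxia arrays 1 and 4 were among the lowest 3 for 7 genes each. The values below are log2 signals given in array order, and levels of different genes are not set against each other.

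The thick filament genes were read out first. Myh6 encodes the alpha-myosin heavy chain, the fast cardiac motor. Its signal was 8.79, 11.29, 12.02 and 7.89 in normoxia, 9.90, 10.41, 8.71 and 9.19 in hypoxia, and 9.90, 10.08 and 8.49 in hypoxia with SU5416. The 2 highest and the lowest of the 11 values were all in normoxia, so the hypoxic groups lay inside the normoxic range. Myl7, the regulatory light chain of atrial myosin, measured 7.78, 10.78, 12.23 and 8.14 in normoxia, 10.28, 10.19, 7.65 and 9.08 in hypoxia, and 10.74, 10.42 and 8.64 with SU5416. Myl4, the essential light chain of atrial myosin, measured 6.90, 8.83, 11.22 and 6.86 in normoxia, 8.43, 8.59, 7.35 and 7.97 in hypoxia, and 8.89, 8.81 and 7.50 with SU5416. Both light chains were high on normoxia arrays 2 and 3, and within each hypoxic group they were low on array 3. Mybpc3, cardiac myosin-binding protein C, which regulates cross-bridges, measured 7.79, 9.06, 8.54 and 8.62 in normoxia, 8.49, 8.78, 8.45 and 6.19 in hypoxia, and 9.11, 8.74 and 8.23 with SU5416. Mybpc3 differed from the others in that normoxia array 3 was not its highest and hypoxia array 4 alone stood low.

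Tnnt2 encodes troponin T, which ties the troponin complex to tropomyosin. Its signal was 3.98, 9.36, 10.87 and 6.39 in normoxia, 8.26, 8.50, 6.67 and 7.01 in hypoxia, and 8.79, 8.46 and 7.26 with SU5416. Tnni3, cardiac troponin I, the subunit that holds contraction off at low calcium, measured 4.95, 8.60, 10.37 and 6.49 in normoxia, 7.87, 7.58, 4.44 and 6.77 in hypoxia, and 7.68, 7.74 and 4.28 with SU5416. Tnnt2 was below background on normoxia array 1, and Tnni3 was below background on 1 array of each group. Against the background value, the highest normoxia array was at least 35.6-fold above the lowest for Tnnt2 and at least 25.2-fold for Tnni3.

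Nppa encodes atrial natriuretic peptide, a hormone that lowers blood pressure and relaxes pulmonary vessels. Its signal was 7.21, 8.90, 11.04 and 6.08 in normoxia, 8.44, 7.87, 7.32 and 6.74 in hypoxia, and 9.92, 7.91 and 7.74 with SU5416. Pln, phospholamban, the inhibitor of the sarcoplasmic reticulum calcium pump, measured 7.25, 8.06, 9.74 and 7.24 in normoxia, 8.07, 7.86, 7.65 and 7.33 in hypoxia, and 9.01, 8.96 and 8.34 with SU5416. Ryr2, the calcium release channel of the sarcoplasmic reticulum, measured 6.90, 7.94, 8.66 and 6.68 in normoxia, 7.37, 7.47, 6.84 and 6.66 in hypoxia, and 7.58, 7.61 and 6.77 with SU5416. For Pln the 3 SU5416 arrays lay above the 4 hypoxia arrays, while both groups lay inside the normoxic range. For Nppa and Ryr2 all 3 groups overlapped.

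**Figure D1:**
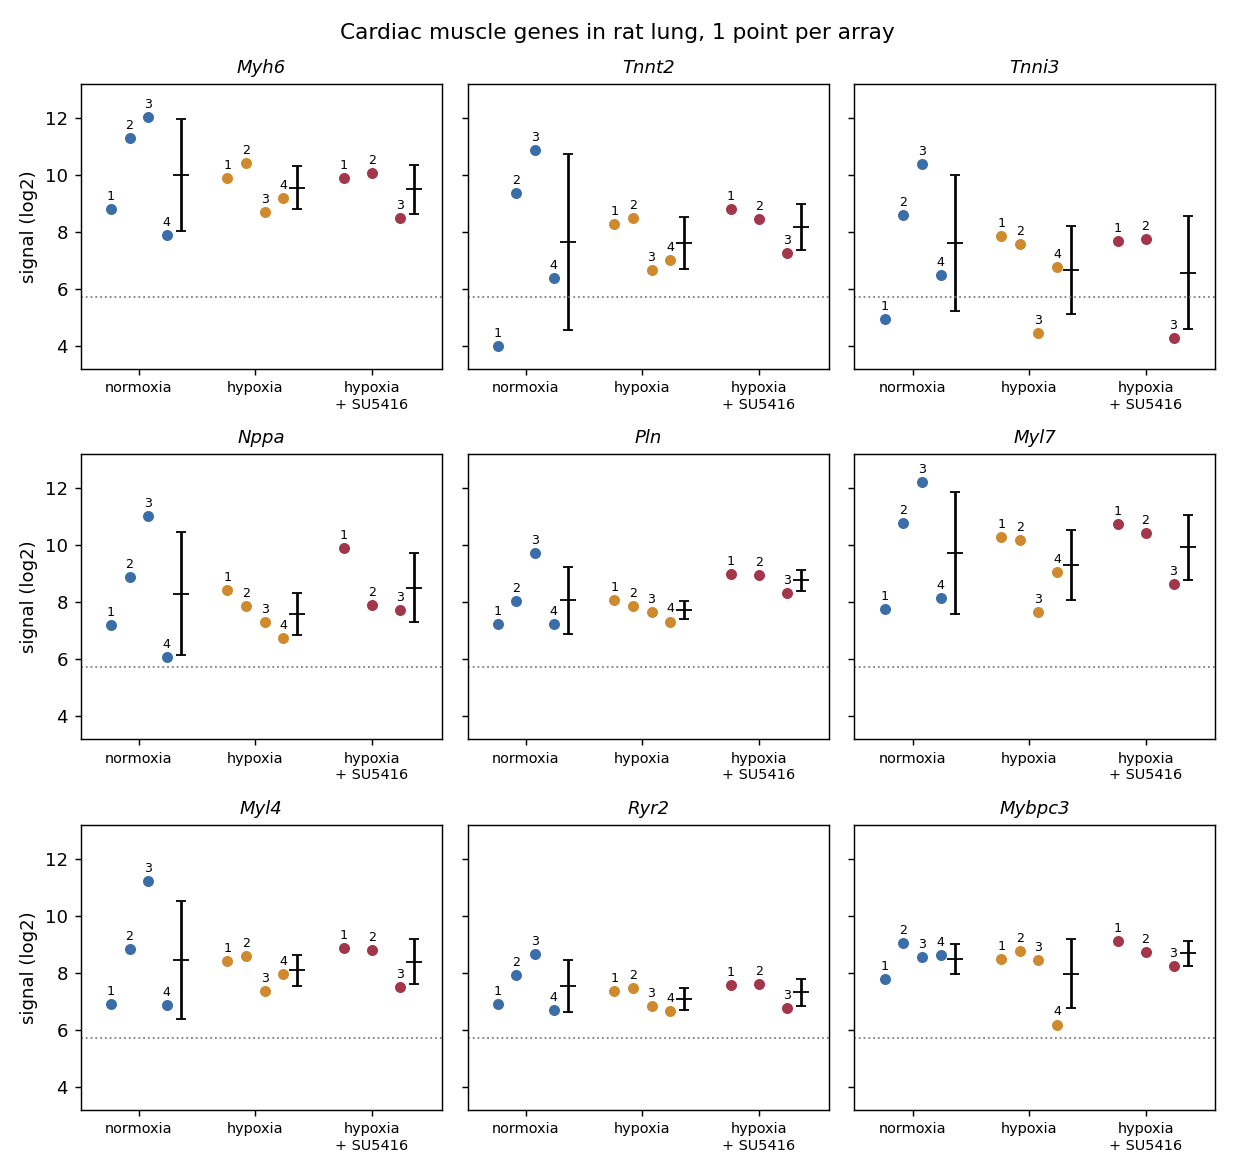
Signal (log2) of the 9 cardiac muscle genes on each array of the 3 groups; numbers mark the replicate, the black bar gives the group mean and SD, and the dotted line is the background of 5.72. The 4 normoxia arrays span the widest range in 8 of the 9 genes, and Mybpc3 is the exception, with hypoxia array 4 at 6.19.

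The range within normoxia was 31.2-fold for Nppa, 21.9-fold for Myl7, 20.5-fold for Myl4 and 17.5-fold for Myh6. It was 5.66-fold for Pln, 3.93-fold for Ryr2 and 2.40-fold for Mybpc3. Within hypoxia the same genes ranged from 1.67-fold (Pln) to 6.19-fold (Myl7), and within hypoxia with SU5416 from 1.59-fold (Pln) to 4.53-fold (Nppa). The SD in normoxia was 2.16 for Nppa, against 0.73 in hypoxia and 1.21 with SU5416. For Myl4 it was 2.06, against 0.56 and 0.78, and for Mybpc3 it was 0.53, against 1.20 and 0.44. No test of these SDs was run, and with 3 or 4 arrays each rests on few values.

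Averaged over genes, each array kept its place. The median deviation of the 9 genes from their own means was -0.90, 0.80, 2.60 and -1.39 log2 on the normoxia arrays. It was 0.20, 0.41, -0.95 and -0.66 on the hypoxia arrays, and 0.75, 0.50 and -0.55 with SU5416. The range was 3.99 within normoxia, 1.37 within hypoxia and 1.30 within hypoxia with SU5416. The arrays with the wide beta-actin gap were 1 low array (normoxia 1, -0.90) and 1 high array (normoxia 2, 0.80). The highest and lowest arrays by this median, normoxia 3 and 4, had gaps of 0.51 and 0.60. By the mean of the genes' standardised values, normoxia 1, with the widest gap, was the lowest (-1.04, against -0.88 for normoxia 4).

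The residual SD within groups, from the model with 1 mean per group, had a median of 1.365 over the 9 genes. Over the 25194 probe sets with a mean above background its median was 0.235, its 95th percentile 0.715 and its 99th percentile 1.054. Tnnt2 (2.003) and Tnni3 (2.002) were exceeded by 2 and 3 of those probe sets. Myl7 (1.612), Nppa (1.522), Myl4 (1.365) and Myh6 (1.363) were above the 99th percentile, Mybpc3 (0.832) and Pln (0.768) were above the 95th, and Ryr2 (0.658) was at percentile 93.7.

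**Figure D2:**
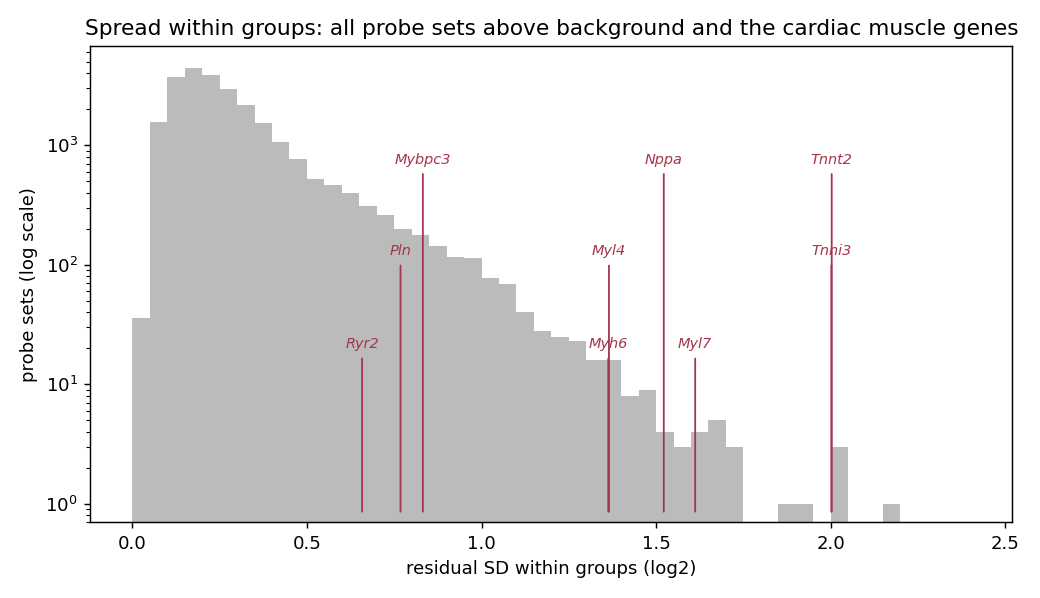
Histogram of the residual SD within groups (log2, x axis) of all 25194 probe sets with a mean above background (y axis on a log scale), with the 9 cardiac muscle genes marked by lines. Tnnt2 and Tnni3 lie near 2.00, where few probe sets fall, and Ryr2 is the lowest of the 9 at 0.658.

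The genes rose and fell together from array to array. Over the 36 pairs of the 9 genes and 11 arrays, Pearson's r ran from 0.28 to 0.95 with a median of 0.84, and 27 pairs had a Benjamini-Hochberg adjusted permutation p below 0.05 (100000 permutations, two-sided). Spearman's rho ran from 0.42 to 0.96 with a median of 0.82, and 28 pairs passed. The 2 atrial light chains, Myl7 and Myl4, had r = 0.945 and rho = 0.945, with a permutation p of 1e-05 for r, the smallest these permutations can give, and an adjusted p of 0.00036. The motor and the calcium channel, Myh6 and Ryr2, had r = 0.95 (adjusted permutation p = 0.00045) and rho = 0.875 (adjusted permutation p = 0.00275).

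The relation did not rest on normoxia array 3 alone. Without that array, the 36 values of r ran from 0.32 to 0.96 with a median of 0.75. Without the 2 arrays farthest from the median of the first gene of each pair they ran from 0.34 to 0.96, with a median of 0.77. After each group's mean was subtracted the median was 0.87, and over the 7 hypoxic arrays it was 0.73 (0.17 to 0.97). For Myl7 and Myl4, r was 0.958 without the 2 farthest arrays and 0.973 over the hypoxic arrays, while for Myh6 and Pln it went from 0.687 to 0.336 without the 2 farthest arrays, so that pair rests on them.

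Mybpc3 stood apart from the other 8 genes, a split made after the values were seen. Its 8 pairs had r from 0.28 to 0.51, and none had an adjusted permutation p below 0.05, against 27 of the 28 pairs among the others (0.62 to 0.95). The pair that missed was Tnni3 and Pln, with r = 0.623 and an adjusted permutation p of 0.0512. By rank, Mybpc3 was closer: its rho ran from 0.42 to 0.67, and the pairs with Tnnt2 (0.673, adjusted permutation p = 0.038) and Ryr2 (0.664, adjusted permutation p = 0.0399) passed.

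Promoter sequence was read for the members because most pairs of them moved together across arrays. The 10 genes had 11 windows of 300 bases among the 33469 in the RefSeq table (build GRCr8), from 250 bases before to 50 after each gene's start, with 2 for Tnnt2. Windows were searched on both strands for the CArG box of serum response factor, the MEF2 site, the GATA site (NGATAN with A or T first and A or G last), the MCAT element of TEAD factors (CATTCC), the E-box (CANNTG) and the TATA box (TATAAA). The CArG box and the MEF2 site overlap in composition with TATA-like runs, and a match is a description of letters and not a site. The 150 bases before the start are shown 5′ to 3′ along the gene for Tnni3, Nppa, Pln and Mybpc3, the members with GATA letters in that stretch; capitals mark matches other than E-boxes.
Tnni3 (chr1:78342421-78342570, plus strand): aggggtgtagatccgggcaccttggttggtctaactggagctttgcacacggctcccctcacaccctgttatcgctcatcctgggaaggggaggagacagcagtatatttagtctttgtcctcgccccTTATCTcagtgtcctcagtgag
Nppa (chr5:163712034-163712183, plus strand): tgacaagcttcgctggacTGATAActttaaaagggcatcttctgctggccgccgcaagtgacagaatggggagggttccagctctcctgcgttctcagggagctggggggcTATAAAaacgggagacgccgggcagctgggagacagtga
Pln (chr20:33172344-33172493, plus strand): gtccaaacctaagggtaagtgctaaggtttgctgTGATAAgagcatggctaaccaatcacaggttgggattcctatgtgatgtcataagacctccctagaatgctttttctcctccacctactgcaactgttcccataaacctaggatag
Mybpc3 (chr3:97550911-97551060, plus strand): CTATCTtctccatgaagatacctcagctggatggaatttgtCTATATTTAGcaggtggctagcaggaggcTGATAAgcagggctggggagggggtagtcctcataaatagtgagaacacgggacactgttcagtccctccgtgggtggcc
GATA letters were in 5 of the 11 member windows (Tnnt2, Tnni3, Nppa, Pln and Mybpc3), against 30.3% of all windows. Counted from the gene's start, their first base is at -22 in Tnni3, -132 in Nppa, -116 in Pln, and -150 and -80 in Mybpc3. The TATA box was in 2 windows (Nppa and Myl4; 14.2% of all windows), the MCAT element in 2 (Myh6 and Tnnt2; 14.2%), the MEF2 site in 1 (Mybpc3; 3.29%), the CArG box in 1 (Actc1; 1.64%) and the E-box in 9 (72.1%).

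In hypoxia against normoxia, which asks whether room air and hypoxic lungs differ, no cardiac muscle gene passed the test. With 1 probe set per gene, the mean of all 9 genes was lower in hypoxia on the deposited scale. After quantile normalization or median centring 8 of 9 were lower, and Tnnt2 was 0.04 and 0.05 higher. Of the 14 member probe sets 12 were lower and 2 were higher, a further Tnnt2 (0.11) and a further Pln probe set (0.07). None of the 14 probe sets passed limma's test at an adjusted p below 0.05, and none had an unadjusted p below 0.05. Over all 31042 probe sets 2 passed (0.00644%), and 3406 had an unadjusted p below 0.05. Arrays of both groups overlapped in all 14 member probe sets, and did not overlap in 6.13% of all probe sets.

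Myh6, with an SD of 1.97 (n = 4) in normoxia and a mean of 9.55 ± 0.75 (SD, n = 4) in hypoxia, had a difference of -0.45 with a standard error (SE) of 0.87 (limma adjusted p = 0.888). The largest difference of the 9 was in Tnni3, 7.60 ± 2.38 against 6.66 ± 1.55, which is -0.94 (SE 1.27, limma adjusted p = 0.827). Nppa was 8.31 ± 2.16 against 7.59 ± 0.73, which is -0.72 (SE 0.97, limma adjusted p = 0.827). These differences were smaller than their standard errors. For Mybpc3 (-0.53, SE 0.53, limma adjusted p = 0.751) and Ryr2 (-0.46, SE 0.42, limma adjusted p = 0.722) the difference was about as large as its SE. Myl7 differed by -0.43 (SE 1.02), Myl4 by -0.37 (SE 0.87), Pln by -0.34 (SE 0.49) and Tnnt2 by -0.04 (SE 1.27), with adjusted p-values from 0.836 to 0.995.

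Over the 9 genes the median difference was -0.45, beside -0.04 over all probe sets tested and 0.00 over the 12678 genes with a mean above background. Lower means were found in 57.6% of all probe sets and in 49.6% of those genes. The median SE was 0.87 for the 9 genes and 0.19 for all probe sets. The direction rested on 1 array. Without normoxia array 3 the median was 0.21, with 3 genes lower and 6 higher, and without each other array of the 2 groups in turn it lay between -0.90 and -0.20. With the beta-actin gap as a covariate the median was -0.86, and without normoxia arrays 1 and 2, which have the wide gap, it was -0.89.

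**Figure D3:**
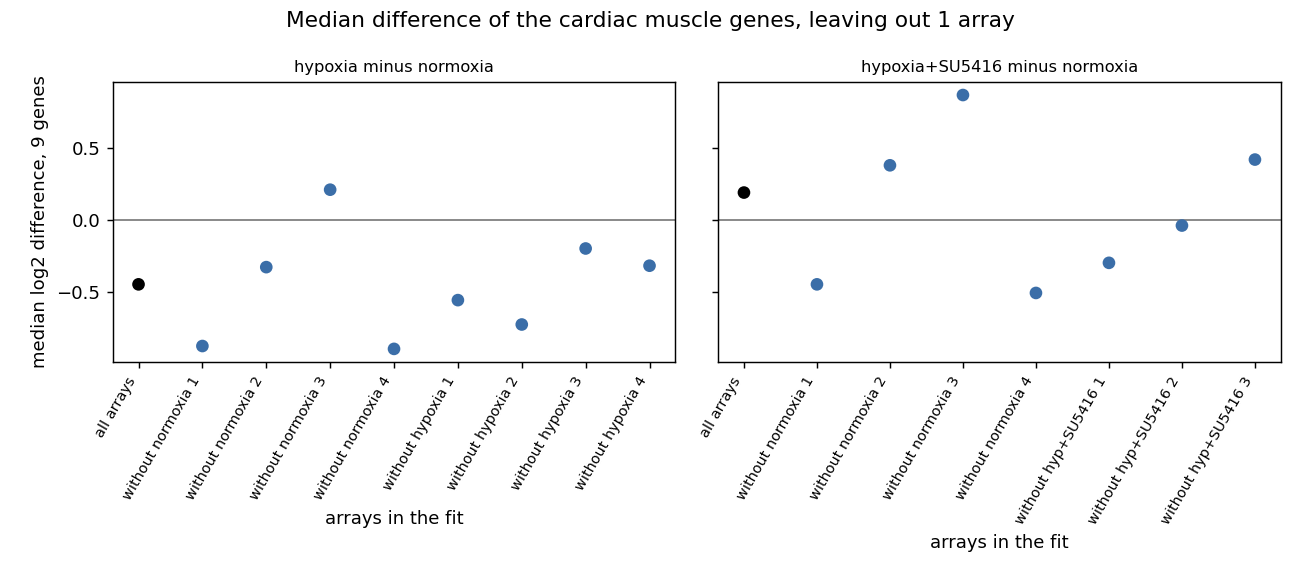
Median log2 difference of the 9 cardiac muscle genes (y axis) with all arrays (black) and with 1 array of the 2 groups left out (blue), for hypoxia minus normoxia (left) and hypoxia with SU5416 minus normoxia (right). Leaving out normoxia array 3 takes the left median from -0.45 to 0.21 and the right one from 0.19 to 0.87.

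In hypoxia with SU5416 against normoxia, again no member passed the test: 5 genes had higher and 4 had lower means, with a median difference of 0.19 beside -0.04 over all probe sets. The differences ran from -1.03 in Tnni3 (SE 1.37, 7.60 ± 2.38 against 6.57 ± 1.98 with n = 3, limma adjusted p = 0.802) to 0.70 in Pln (SE 0.53, 8.07 ± 1.18 against 8.77 ± 0.37, limma adjusted p = 0.63). Among the other 7 genes Tnnt2 was at 0.52, Nppa at 0.21, Myl7 at 0.20, Mybpc3 at 0.19, Myl4 at -0.05, Ryr2 at -0.23 and Myh6 at -0.51. None of the 14 probe sets was called or had an unadjusted p below 0.05, against 19 called of all tested (0.0612%), and none separated the groups, against 11.9%. The median had no stable sign: it was 0.87 without normoxia array 3, -0.51 without normoxia array 4, -0.45 without normoxia array 1, -0.30 without SU5416 array 1 and -0.04 without SU5416 array 2.

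In hypoxia with SU5416 against hypoxia alone, which asks what the inhibitor adds, no member passed the test either. Means were higher with SU5416 in 7 of the 9 genes, with a median difference of 0.56 beside 0.01 over all probe sets, and this median stayed between 0.15 (without hypoxia array 3) and 1.02 (without SU5416 array 3) when 1 array was left out. It was 0.15 with the beta-actin gap as a covariate, 0.25 with the replicate number as a block and 0.31 with array quality weights. Pln had the largest difference, 7.73 ± 0.32 (n = 4) against 8.77 ± 0.37 (n = 3), which is 1.04 (SE 0.53, limma adjusted p = 0.728). Nppa differed by 0.93 (SE 1.04), Mybpc3 by 0.72 (SE 0.57), Myl7 by 0.63 (SE 1.10), Tnnt2 by 0.56 (SE 1.37), Myl4 by 0.31 (SE 0.94) and Ryr2 by 0.23 (SE 0.46). Myh6 (-0.06, SE 0.94) and Tnni3 (-0.10, SE 1.37) had the smallest differences. No probe set of the members was called or had an unadjusted p below 0.05, against 8 of all tested (0.0258%) called. The 3 comparisons share their groups, so they are not independent of each other.

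The arrays of the 2 hypoxic groups did not overlap in 3 of the 14 member probe sets, against 11.5% of all probe sets. One was the main Pln probe set. The others were a further Pln probe set (1388876_at), which differed by 0.77 (SE 0.40, limma adjusted p = 0.739), and the dimmer Myh6 probe set (1387049_at), which differed by 1.62 (SE 0.96, limma adjusted p = 0.782). That Pln probe set measured 7.95, 8.08, 7.50 and 7.68 in hypoxia and 8.37, 8.43 and 8.91 with SU5416. The Myh6 probe set measured 4.91, 3.57, 5.86 and 3.46 in hypoxia, mostly below background, and 6.15, 6.08 and 5.99 with SU5416, while the bright Myh6 probe set overlapped between the 2 groups.

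**Figure D4:**
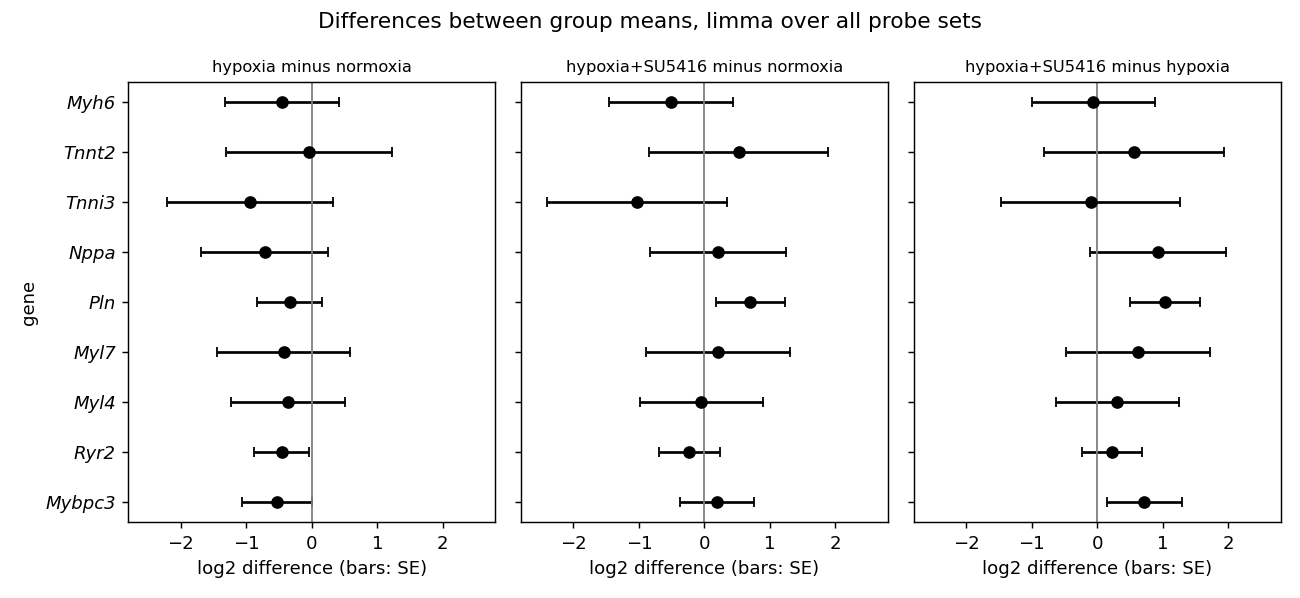
Log2 differences between group means (points) with their standard errors (bars) for the 9 cardiac muscle genes in the 3 comparisons, from limma over all probe sets. All 9 points lie below 0 in hypoxia minus normoxia, from -0.94 to -0.04, and no gene passed the test in any comparison.

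Probe sets of 1 gene did not always agree. The 2 bright Pln probe sets had r = 0.85 over the 11 arrays, while the third (1384689_at), above background on 2 arrays only, had r = 0.24 with the brightest. The second Tnnt2 probe set (1390061_at) stayed between 5.60 and 6.87 where the first spanned 3.98 to 10.87, and their r was 0.10. The second Myh6 probe set had r = 0.54 with the first, and the second Ryr2 probe set (1382775_at) was below background on all 11 arrays.

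Cardiac alpha-actin, Actc1, could be followed only through probe sets that also match Acta2, the smooth muscle actin, so their signal cannot be given to 1 gene. The most alike of the 5 (1370856_at) measured 10.23, 11.05, 12.23 and 10.09 in normoxia, 10.87, 10.71, 9.65 and 10.10 in hypoxia, and 11.27, 11.13 and 10.42 with SU5416. Its r with the member score, the mean of the 9 genes after each was standardised over the arrays, was 0.95, and the other 4 had r from 0.60 to 0.90. The brightest probe set named for Acta2 alone had r = 0.09, but 0.65 without normoxia array 3, so its low value rests on that array. The probe sets naming both Myh7 and Myh6 had r of 0.94 (1398248_s_at) and 0.59 (1396165_at). None of these 7 shared probe sets was called in any comparison.

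Of the 12669 other genes with a mean above background, the 10 whose signal most resembled the member score were Ckmt2 (r = 0.979), Mb (0.972), Tnnc1 (0.964), Car3 (0.947), Cox6a2 (0.939), Sln (0.935), Lgi1 (0.927), Cep78 (0.921), Smpx (0.918) and Csrp3 (0.916), over 11 arrays and as a description. Ckmt2 is the mitochondrial creatine kinase of striated muscle, Mb is myoglobin, Tnnc1 is troponin C, Sln is sarcolipin, an atrial inhibitor of the calcium pump, and Csrp3 is the Z-disc protein MLP. Without normoxia array 3, r was 0.972 for Ckmt2, 0.949 for Mb, 0.959 for Tnnc1 and 0.864 for Lgi1. Mb itself measured 6.11, 9.24, 10.87 and 6.81 in normoxia, 8.30, 8.02, 6.28 and 6.84 in hypoxia, and 8.86, 8.14 and 6.12 with SU5416, high on normoxia arrays 2 and 3 and low on array 3 of each hypoxic group, as the light chains were. All 13 genes with r above 0.9 were highest on normoxia array 3.

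Other heart muscle genes followed the members in part. Among 19 further sarcomere genes the median r with the member score was 0.66 and 7 exceeded 0.8, with Myoz2 (0.98) and Actn2 (0.94) below background on 9 and 10 arrays. Among 12 genes of muscle energy supply the median was 0.71 and 6 exceeded 0.8, against a median of -0.02 and 33 genes over 0.8 among the 12669. Unlike the 12669, the lists were not limited to genes with a mean above background. Of the 6, Pgam2 (0.96) was above background on 2 arrays only. Calcium handling genes had a median of 0.38: Sln (0.94) and Casq2 (0.87), the calcium store of the reticulum, were alike, while the pump Atp2a2 (0.13) was not. The 10 ion channel and junction genes (median 0.20, highest 0.46) and the 11 transcription factors (median -0.07, highest 0.23), among them Nkx2-5 (0.12), Gata4 (-0.07) and Tbx5 (-0.18), had low values of r. Without normoxia array 3 these 5 medians were 0.58, 0.67, 0.28, 0.13 and 0.08.

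No gene of these lists was called in any comparison. In hypoxia against normoxia, 13 of 19 sarcomere genes were lower (median -0.16), 10 of 14 calcium and natriuretic genes (median -0.27), 6 of 10 channel genes (median -0.19), 5 of 11 transcription factors (median 0.05) and 10 of 12 energy genes (median -0.52). Npr3, the natriuretic peptide clearance receptor, differed by -1.83 (SE 0.69, limma adjusted p = 0.391). Npr3 was 7.43 to 8.58 in normoxia and 4.89, 4.45, 7.26 and 7.82 in hypoxia, so 2 hypoxia arrays carried its difference, and these were not the arrays low for the members. Nppb, brain natriuretic peptide, was above background on 2 of 11 arrays, both in normoxia, and Myoz2 on 2, so their differences have no measured size.

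The atrial and ventricular lists overlapped in their likeness to the members. In the atrial list, Myl7, Myl4 and Nppa are members, and Sln (0.94) and Mybphl (0.82), a relative of the myosin-binding proteins, followed them, whereas Gja5 (-0.42), Kcna5 (0.24) and Kcnj3 (0.19), which other lung cells can also express, did not. Sln measured 7.63, 8.92, 10.45 and 7.08 in normoxia, 7.98, 8.0, 7.06 and 7.51 in hypoxia, and 8.68, 8.19 and 7.67 with SU5416. Of the ventricular list, the light chains Myl2 and Myl3 were above background on 4 arrays each and Myh7, the slow myosin heavy chain, on 3. Myl2 stayed between 5.35 and 6.24, close to background, and had r = -0.01 with the member score, while Myl3 had 0.52 and Myh7 -0.08. On normoxia array 3, where the members were highest, Myl2 was 5.94, Myl3 6.18 and Myh7 5.77. The transcription factors Irx4 (r = 0.47) and Hey2 (r = -0.13) were above background on all arrays. None of the 5 exceeded r = 0.8 and none was called.

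Skeletal muscle genes did not move with the members as a list: the median r of the 17 measured was 0.04 (0.14 without normoxia array 3) and none exceeded 0.8. Acta1, skeletal alpha-actin, which heart muscle also makes, had r = 0.57 and measured 7.17, 6.50, 8.57 and 6.71 in normoxia, 7.71, 7.81, 6.87 and 6.81 in hypoxia, and 9.48, 8.21 and 8.07 with SU5416. The fast troponins Tnnt3 (r = 0.46) and Tnni2 (r = 0.32) did not exceed 8.07 on any array. Tnnc2, a further troponin named after its values were seen, had the highest r of the list (0.69, and 0.47 without normoxia array 3). It was highest on normoxia array 3, at 6.82. Of the 17 genes, 5 were above background on all 11 arrays (Acta1, Myh1, Casq1, Myog and Mybpc2) and 5 were below it on all 11 (Myh4, Pvalb, Cacng1, Myod1 and Mybpc1). Myh1, a fast myosin heavy chain, had a mean of 11.79 and r = -0.16, and Myog, a muscle transcription factor, had a mean of 8.15 and r = -0.35 (0.44 without normoxia array 3). The summed signal of the 17 genes was 12.14 to 12.66 log2 in normoxia, 12.10 to 12.38 in hypoxia and 12.30 to 12.68 with SU5416, while that of the 9 members was 10.52 to 14.16, 10.76 to 12.15 and 11.01 to 12.55. Myh1 alone, at 11.37 to 12.14 over the 11 arrays, made up most of the skeletal sum, which therefore says little about the other skeletal genes.

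Of the 9 lists of other cell types and tissues, fat had the highest median r with the member score. It was 0.73 over 9 fat genes (0.65 without normoxia array 3), and all 9 values were positive. That was no lower than the medians of the further sarcomere (0.66), energy supply (0.71) and calcium handling (0.38) genes. Without normoxia array 3 these were 0.58, 0.67 and 0.28, so likeness to the members was not particular to heart muscle lists. In hypoxia against normoxia 7 of the 9 fat genes were lower (median -0.23) and none was called. Adipoq, adiponectin, measured 7.42, 7.04, 8.54 and 6.11 in normoxia, 6.35, 7.45, 6.52 and 6.40 in hypoxia, and 7.62, 7.16 and 6.39 with SU5416 (r = 0.73). Fabp4 had r = 0.82, Plin1, a coat protein of lipid droplets, had 0.77, and Ucp1 of brown fat had 0.15. The summed signal of the 9 fat genes was 10.46, 10.95, 11.79 and 10.76 log2 on the normoxia arrays, 10.94, 11.13, 10.65 and 10.51 on the hypoxia arrays, and 11.66, 11.23 and 10.78 with SU5416. It was highest on normoxia array 3, as for the members. On normoxia array 4, the lowest for 4 of the 9 members, it was 10.76. The 3 arrays with lower sums were normoxia 1, hypoxia 3 and hypoxia 4. These were low for the members too, with median deviations of -0.90, -0.95 and -0.66. The part of fat in the members' values was not tested.

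Other lung structures had lower medians. The median r was 0.37 for 7 mesothelial genes, 0.27 for 9 lymphoid genes, 0.18 for 12 smooth muscle genes, 0.11 for 10 cartilage genes, 0.04 for 8 airway genes, -0.10 for 8 endothelial genes and -0.25 for 10 alveolar genes. Without normoxia array 3 these medians were, in the same order, 0.31, -0.25, 0.40, 0.02, 0.31, 0.02 and 0.10, so the lymphoid, endothelial and alveolar medians turned sign. Within the airway list Bpifa1, a secreted protein of the larger airways, had r = 0.81, and it measured 10.10, 12.25, 12.69 and 9.36 in normoxia, 11.51, 12.47, 11.48 and 11.07 in hypoxia, and 12.51, 11.71 and 9.76 with SU5416. Like Myl7 it was high on normoxia arrays 2 and 3 and low on SU5416 array 3. On hypoxia array 3, where Myl7 had its lowest value (7.65), Bpifa1 was not low (11.48). Alveolar summed signal stayed between 16.12 and 16.55 log2 over the 11 arrays. Fabp4 and Bpifa1 were singled out after their values were seen, and the amount of vein or bronchus in each sample was not measured here.

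**Figure D5:**
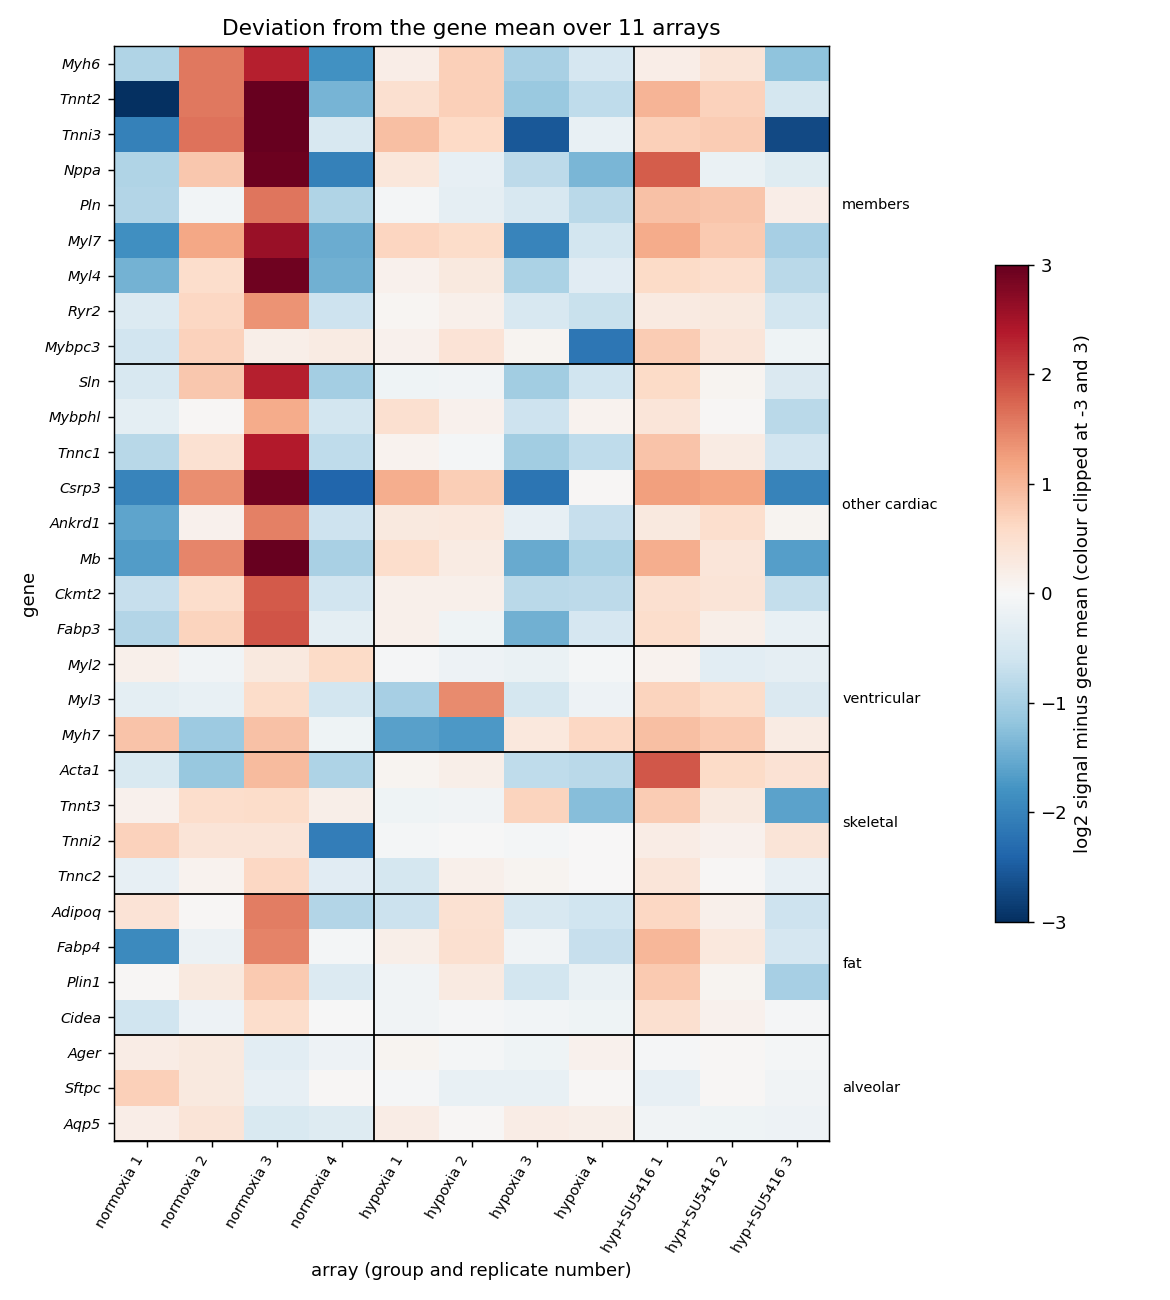
Deviation of the log2 signal from each gene's mean over 11 arrays (colour, clipped at -3 and 3) for the 9 members and for genes picked from the other lists, by array and group. Normoxia array 3 is high for 8 of the 9 members, for the other cardiac genes shown and for Fabp4 and Adipoq. The ventricular light chain Myl2 and the alveolar genes vary little. The other cardiac genes shown all had r of at least 0.82 with the member score. Genes of the same lists with low r, such as Tpm1 (0.08) and Cox7a1 (-0.26), are not shown.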

How the data were processed

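Total RNA of 11 rat lung samples was measured on Affymetrix arrays. The deposited values are log2 signals per probe set. RMA is named, without a version, in the submitters' processing notes, yet each array's linear signals average 500.0 once the outer 2% are trimmed, so which summarisation made the log2 values deposited by the authors is unsure; they were used as deposited. Gene names came from the platform annotation: 20826 probe sets name 1 gene, 436 several and 9780 none; 57 control probe sets were left out. limma 3.58.1 in R 4.3.3 was fitted to all 31042 probe sets with 1 mean per group (8 residual degrees of freedom) and Benjamini-Hochberg adjustment, with calls at adjusted p below 0.05; it was tested on simulated data. The probe set of highest mean stands for a gene. Members, lists and the rule for naming genes (the members, all ventricular and atrial genes, 4 skeletal genes of which Mylpf has no probe set of its own, up to 4 genes per list with the largest hypoxia minus normoxia difference, and the 10 genes most like the members) were chosen with earlier results of these data known. Alternatives were quantile normalization, median centring, a filter on dim probe sets, other fits, array weights, the replicate number as a block, the beta-actin gap, and leaving out arrays. Same-numbered arrays had residual correlations of -0.125 to 0.128 over 10 pairs, 2 of them above 0.1, so numbers were not taken as pairs. A group that also received sorafenib was not analysed here.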

Additional observations from a re-analysis of the deposited data

Results flagged for a closer look

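Mybpc3 on hypoxia array 4, at 6.19 log2, lay far below the other 3 hypoxia arrays, which measured 8.49, 8.78 and 8.45. The gap to the nearest array was 0.873 of the group's range, above Dixon's 95% critical value for 4 samples. This was 1 of 28 groups of 4 arrays examined (14 probe sets in normoxia and hypoxia), and chance gives about 1 such gap in 20 groups. Without that array Mybpc3 was 0.07 higher in hypoxia than in normoxia, where it was 0.53 lower with all arrays.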

How the results depend on the processing

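No member probe set was called in any comparison in 19 of the 20 alternative fits. The exception was the fit with normoxia arrays 1 and 2 left out, in which 1 was called in hypoxia minus normoxia, the dim Pln probe set 1384689_at (-2.54, SE 0.25, limma adjusted p = 0.0207). In that fit 99 of all probe sets were called in this comparison, against 2 in the main fit. The Pln probe set was below background on every hypoxia array (3.72 to 4.27), so its difference has no measured size. Over the alternative fits the lowest limma adjusted p of any member was 0.0207 in hypoxia minus normoxia, 0.0506 in hypoxia with SU5416 minus normoxia and 0.292 in hypoxia with SU5416 minus hypoxia. With the replicate block the gene medians were -0.45, -0.30 and 0.25, and no member was called. The median of hypoxia with SU5416 minus normoxia also turned negative with array quality weights (-0.32), with the beta-actin gap as a covariate (-0.61) and with normoxia arrays 1 and 2 left out (-0.35), and it was positive with quantile normalization (0.23) and median centring (0.24). Leaving out the dimmer probe sets kept 6 of the 9 genes.

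No single gene's difference was called in any of these fits except that of the Pln probe set above. Leaving out 1 array turned the sign of 7 of the 9 genes in hypoxia minus normoxia. There the lowest and highest values were -1.15 and 0.23 for Myh6, -1.26 and 1.03 for Tnnt2, -1.46 and 0.20 for Nppa, -0.62 and 0.21 for Pln, -1.08 and 0.40 for Myl7, -0.90 and 0.56 for Myl4, and -0.79 and 0.07 for Mybpc3. The highest came without normoxia array 3, except for Mybpc3, where it came without hypoxia array 4. Tnnt2 was also 0.04 with quantile normalization and 0.05 with median centring. With 1 array left out, Tnni3 ran from -1.92 to 0.11 in hypoxia with SU5416 minus normoxia. In hypoxia with SU5416 minus hypoxia it then ran from -0.84 to 1.05, and both were highest without SU5416 array 3. Causes were not tested. Signals near background, as for Tnni3 on 3 arrays and Tnnt2 on 1, carry bounds rather than levels.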
